A study of Rattus norvegicus with 9 samples.

Results

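Angiopoietins and angiopoietin-like factors are secreted proteins, most of which share a coiled-coil and a fibrinogen-like domain. The genes described here are the 6 rows of the deposited expression table whose symbol is Angpt1, Angpt2, Angptl1, Angptl2, Angptl4 or Angptl7, of 17602 genes in all. All 6 entered the test, which covered the 16512 genes above 0 TPM (a level per transcript length that sums to the same total in each library) in at least 3 libraries.

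RNA was sequenced from knees of young adult male wild-type (WT) Lewis rats in 3 groups of 3 libraries. The intact group was synovium around the medial meniscus of rats with no surgery, and the sham group was the same tissue 1 week after the joint capsule had been opened and closed. The pMx group was the tissue regenerating 1 week after partial medial meniscectomy, cut at its border with the remaining meniscus and freed of synovium. Sham and pMx therefore differed in the operation and in the tissue taken, and these cannot be told apart. RNA integrity, as listed in the study's supplement, was lowest in the intact, higher in the sham and highest in the pMx samples without overlap, so it too cannot be told apart from the groups.

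ANGPT1, made mainly by mural and stromal cells, activates the receptor Tie2 (encoded by Tek) on endothelial cells and keeps vessels quiescent. ANGPT2 is stored and released by endothelial cells, acts on Tie2 in a way that depends on the setting, and loosens vessels so that they can sprout or regress. The angiopoietin-like proteins are not known as ligands of Tie2. ANGPTL2 signals through integrins and leukocyte receptors and is known from inflamed joints and fibrosis, and ANGPTL4 inhibits lipoprotein lipase. ANGPTL1 is known as an inhibitor of vessel growth, and ANGPTL7 is a matrix-associated factor of connective tissue and eye.

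In the regenerating tissue of pMx knees, Angptl2 rose and Angpt2, Angptl1 and Angptl7 fell against sham synovium. Angpt1 also fell, by a smaller amount and with a call that was lost in 5 of 9 fits that left out 1 library. Angptl2 reached 472 ± 17.6 TPM (SD, n = 3) in the pMx group, 2.57 times its sham mean, and Angptl7 dropped to 0.45 ± 0.197 TPM, 0.0584 times its sham mean. Angpt2, the more abundant of the Tie2 ligands Angpt1 and Angpt2, stood at 0.582 times its sham mean. Angptl4 did not pass the test. Sham surgery alone was followed by lower Angpt1 and Angpt2 and by higher Angptl1 and Angptl2 than in intact synovium.

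Promoters of 3 of the 6 genes were found in the RefSeq table of the rat assembly GRCr8, those of Angptl1, Angptl2 and Angptl4. They are shown because no others of the 6 were available. Over the groups, Angptl1 rose after sham surgery and fell in pMx tissue, Angptl2 rose at both steps, and Angptl4 had no call at either. Each line holds the 120 bases before the annotated start, 5′ to 3′ on the strand of the gene, and capitals mark a match to TGACGT, the core of a cAMP response element, or to TATAAA, the TATA box. Angptl1 lies on the plus strand at chr13:71513227-71513346, Angptl2 on the plus strand at chr3:36914756-36914875 and Angptl4 on the minus strand at chr7:15258682-15258801.
Angptl1: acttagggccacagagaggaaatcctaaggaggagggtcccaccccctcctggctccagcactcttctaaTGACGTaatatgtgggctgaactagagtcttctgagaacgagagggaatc
Angptl2: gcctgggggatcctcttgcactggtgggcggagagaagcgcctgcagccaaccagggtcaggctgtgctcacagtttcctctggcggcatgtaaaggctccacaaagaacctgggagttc
Angptl4: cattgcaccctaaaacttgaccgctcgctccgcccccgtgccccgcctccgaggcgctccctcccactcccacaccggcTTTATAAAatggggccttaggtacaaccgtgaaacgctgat

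Letters of 4 motifs were searched on both strands of the 300-base windows from 250 bases before to 50 bases after the start. ACGTG, the core of the hypoxia response element, is in 19.3% of the 33469 windows of the table, TGANTCA (the AP-1 site) in 7.33%, TATAAA in 14.2% and TGACGT in 7.94%. The Angptl4 window held TATAAA on both strands in overlapping letters, at -39 to -34 on its own strand and at -41 to -36 on the other, and ACGTG on the other strand at -230 to -226. The Angptl1 window held TGACGT at -50 to -45 and TATAAA on the other strand at -242 to -237. None of these letters was found in the Angptl2 window.

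The libraries each summed to 1000000 TPM, so their depth is unknown and the spread between the 3 libraries of a group is the only measure of error. The titles call the libraries of a group biological replicates, but neither they nor the methods say which animals each came from, so p-values measure the spread between these libraries. The third intact library stood apart in the summed level of 12 skeletal muscle markers, 43396 TPM against 59.8 and 200 TPM in the other intact libraries, 226 to 2901 TPM in the sham group and 88.4 to 3017 TPM in the pMx group. Values of the 6 genes and their ratios against intact synovium are therefore also given without it. Synovial markers such as Prg4, the lubricin gene, were present in all groups (means of 2646, 1315 and 1453 TPM in intact, sham and pMx). The lining markers Clic5 (462, 239 and 13.1 TPM) and Cd55 and the fibroblast marker Fap fell in pMx versus sham. Of the 12 synovial fibroblast markers 4 rose and 4 fell there, where 17.7% and 18.9% of all genes did. Thy1 (122, 326 and 1037 TPM) and Col1a1 (1516, 4501 and 15669 TPM) were among those that rose. The summed level of 12 adipocyte markers was 661 to 4524 TPM in intact, 3309 to 4144 TPM in sham and 96.1 to 192 TPM in pMx libraries, and all 12 fell between sham and pMx. In bulk tissue, fewer cells of a type and less RNA per cell cannot be told apart.

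Fold changes were estimated in limma on log2(TPM + 1) over all 9 libraries, which shrinks the change of genes with low levels. A gene passed the test at an adjusted p (Benjamini-Hochberg over all genes tested) below 0.05 and was called a DEG if its absolute log2 fold change was also above 1. In pMx versus sham, 1 of the 6 genes was higher and 4 were lower at the adjusted p alone, and 1 and 2 of these were DEGs. Of all genes tested, 17.7% were higher and 18.9% lower by adjusted p in that comparison, and 3.36% and 4.85% were higher and lower DEGs. The median log2 fold change was -0.62 over the 6 genes and -0.01 over all genes. In sham versus intact, 2 genes were higher and 2 lower by adjusted p, against 6.73% and 5.97% of all genes, and none was a DEG in either direction in limma, against 1.42% and 0.533%. At an unadjusted p below 0.05 the numbers in sham versus intact were also 2 and 2. In pMx versus intact, 1 gene was higher and 3 were lower, all 4 of them DEGs, where 23.4% and 27.1% of all genes passed in each direction and 6.4% and 7.89% were DEGs. The pMx versus sham and sham versus intact comparisons share the sham libraries, and pMx versus intact shares libraries with both. Angptl2 is among the secreted factors that the study labeled because they were upregulated in these same libraries, so its direction in pMx versus sham is not independent evidence.

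**Figure D1:**
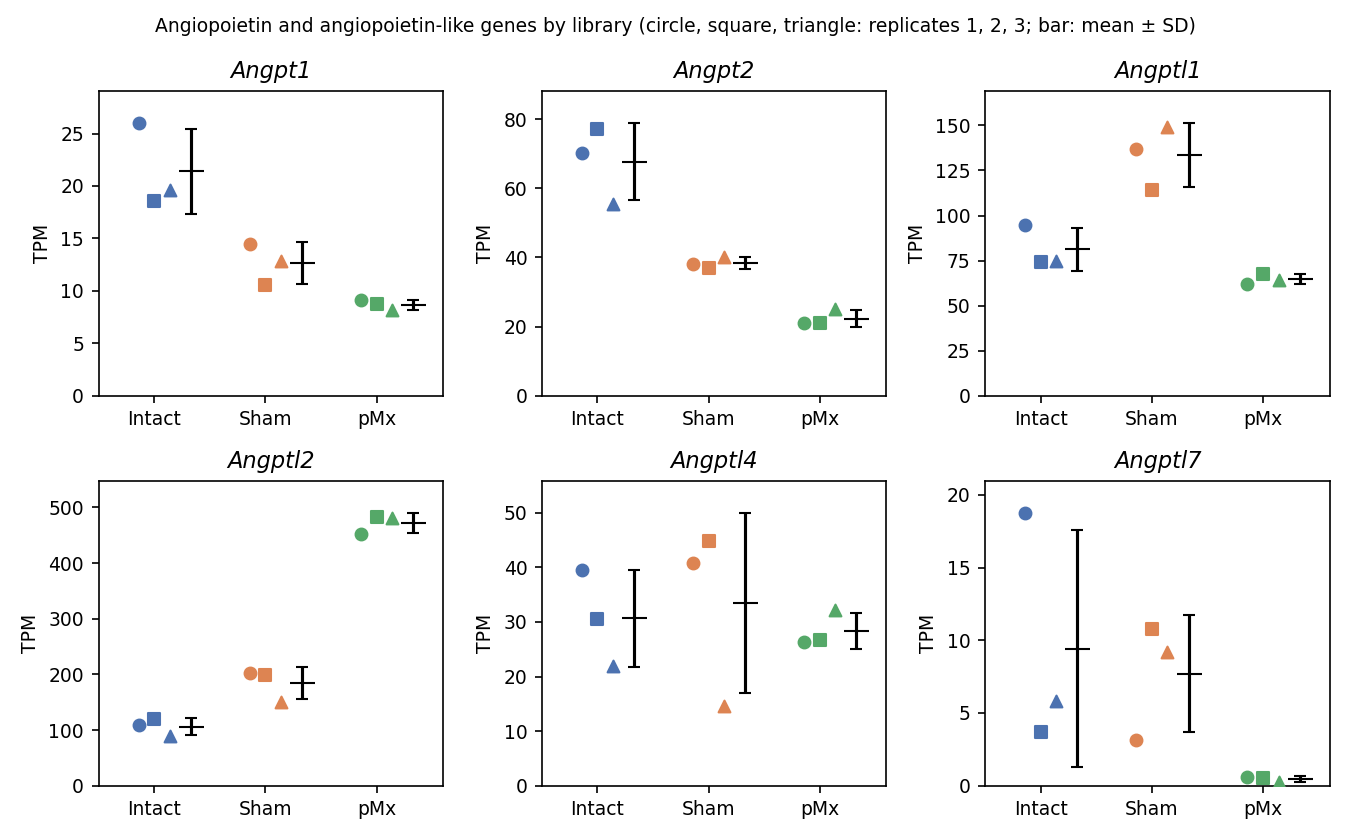
TPM of the 6 genes in each of the 9 libraries (circle, square and triangle for replicates 1, 2 and 3 of a group) with the group mean ± SD as a bar, on linear axes that start at 0. The 3 pMx libraries of Angptl2 lie between 452 and 483 TPM, above all others, and those of Angpt1, Angpt2, Angptl1 and Angptl7 lie below all others.

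Among the Tie2 ligands, Angpt2 fell at each step from intact to sham to pMx. Its level was 70.3, 77.2 and 55.4 TPM in the intact libraries, 38.0, 36.8 and 40.2 TPM in the sham libraries and 20.9, 21.0 and 25.0 TPM in the pMx libraries. No 2 groups overlapped, and the third intact library was the lowest of its group. The log2 fold change was -0.76 (SE 0.12, limma adjusted p = 0.00168) in pMx versus sham, -0.79 (SE 0.12, adjusted p = 0.0079) in sham versus intact and -1.55 (SE 0.12, adjusted p = 1.87e-05) in pMx versus intact. Without the third intact library the value in sham versus intact was -0.93 (limma adjusted p = 0.0021, in a range of 0.00109 to 0.0387 over all alternatives) and in pMx versus intact -1.68. In every fit that left out 1 library, Angpt2 passed the test in all 3 comparisons.

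Angpt1 was less abundant and followed the same order. The intact libraries held 26.0, 18.6 and 19.6 TPM, the sham libraries 14.5, 10.6 and 12.9 TPM and the pMx libraries 9.12, 8.71 and 8.2 TPM. Again no groups overlapped, but the gap between the lowest sham and the highest pMx library was small. The log2 fold change was -0.49 (SE 0.15, limma adjusted p = 0.0297) in pMx versus sham, -0.71 (SE 0.15, adjusted p = 0.0199) in sham versus intact and -1.20 (SE 0.15, adjusted p = 0.0002) in pMx versus intact.

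The pMx versus sham call for Angpt1 was lost in 5 of 9 fits that left out 1 library, those without sham replicate 1 (log2 fold change -0.39, limma adjusted p = 0.103), sham replicate 3 (-0.47, 0.0869), pMx replicate 1 (-0.52, 0.0604), pMx replicate 2 (-0.49, 0.0742) or pMx replicate 3 (-0.45, 0.0874). Its adjusted p ranged from 0.0134 to 0.103 over all alternatives. In sham versus intact the call was lost without sham replicate 2 (-0.60, limma adjusted p = 0.0723) and with only the 6 libraries of that comparison (adjusted p = 0.069), in a range of 0.0136 to 0.0723. Without the third intact library the sham versus intact value was -0.76 (adjusted p = 0.0193) and the pMx versus intact value -1.25. The fall in pMx versus intact passed the test and stayed a DEG in each of those fits, with an adjusted p of at most 0.00135 over all alternatives.

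The ratio of Angpt2 to Angpt1 within a library does not depend on library scaling. It was 2.71, 4.16 and 2.83 in intact, 2.62, 3.48 and 3.12 in sham and 2.29, 2.41 and 3.05 in pMx libraries, so all groups overlapped. The pMx versus sham difference in the mean log2 ratio was -0.25 (exact two-sided permutation test, p = 0.2, n = 3 against 3). For sham versus intact it was -0.05 (exact permutation p = 0.8) and for pMx versus intact -0.31 (exact permutation p = 0.3), or -0.14 and -0.39 without the third intact library. With 3 libraries against 3 the smallest p this test can give is 0.1, and 12 such tests were made over 4 ratios, so that a p of 0.1 became 0.15 after Benjamini-Hochberg adjustment.

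Angpt2 is known from endothelial cells, and 14 endothelial markers were therefore summed in each library. Which cells held the Angpt2 RNA in these bulk tissues was not tested. Their sum was 1457 to 1906 TPM in intact, 1195 to 1285 TPM in sham and 971 to 1198 TPM in pMx libraries. In pMx versus sham 4 of the 14 fell and none rose in limma, against 18.9% and 17.7% of all genes. At an unadjusted p below 0.05, and also by adjusted p without the third intact library, 2 rose. These were the junction gene Cdh5 (means of 113 and 142 TPM in sham and pMx) and Kdr (21.2 and 28.7 TPM). The fallen markers were Emcn, Vwf, Plvap and another junction gene, Cldn5 (log2 fold change -1.42, limma adjusted p = 0.000201). In sham versus intact 6 of the 14 fell and none rose, against 5.97% and 6.73% of all genes. Set against the sum of the 14 markers, Angpt2 was 0.0403, 0.0405 and 0.0380 in intact, 0.0317, 0.0287 and 0.0329 in sham and 0.0215, 0.0215 and 0.0209 in pMx libraries.

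The ratio of Angpt2 to the endothelial sum thus did not overlap between any of the groups. Its log2 ratio differed by -0.54 between pMx and sham, by -0.35 between sham and intact and by -0.89 between pMx and intact, each with an exact permutation p of 0.1 (adjusted p = 0.15, n = 3 against 3), the smallest possible. Without the third intact library the differences from intact were -0.38 for sham and -0.92 for pMx. Pericyte and smooth muscle genes moved as well: of 12 markers, 5 fell and 1 rose in pMx versus sham. Their summed levels were 2948 to 3228 TPM in sham and 1981 to 2064 TPM in pMx libraries. The fallen were the smooth muscle genes Acta2 (means of 1455 and 564 TPM in sham and pMx), Myh11 and Cnn1 and the pericyte genes Abcc9 and Higd1b. The pericyte gene Pdgfrb rose (0.85, limma adjusted p = 0.00825), and Rgs5 did not pass (616 and 653 TPM). The part of pericytes and smooth muscle cells in the fall of Angpt1 was not tested. Of 12 macrophage markers 1 rose and 3 fell in that comparison, and of 12 synovial fibroblast markers 4 rose and 4 fell. For each of these lists, the shares over all genes were 17.7% higher and 18.9% lower.

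**Figure D2:**
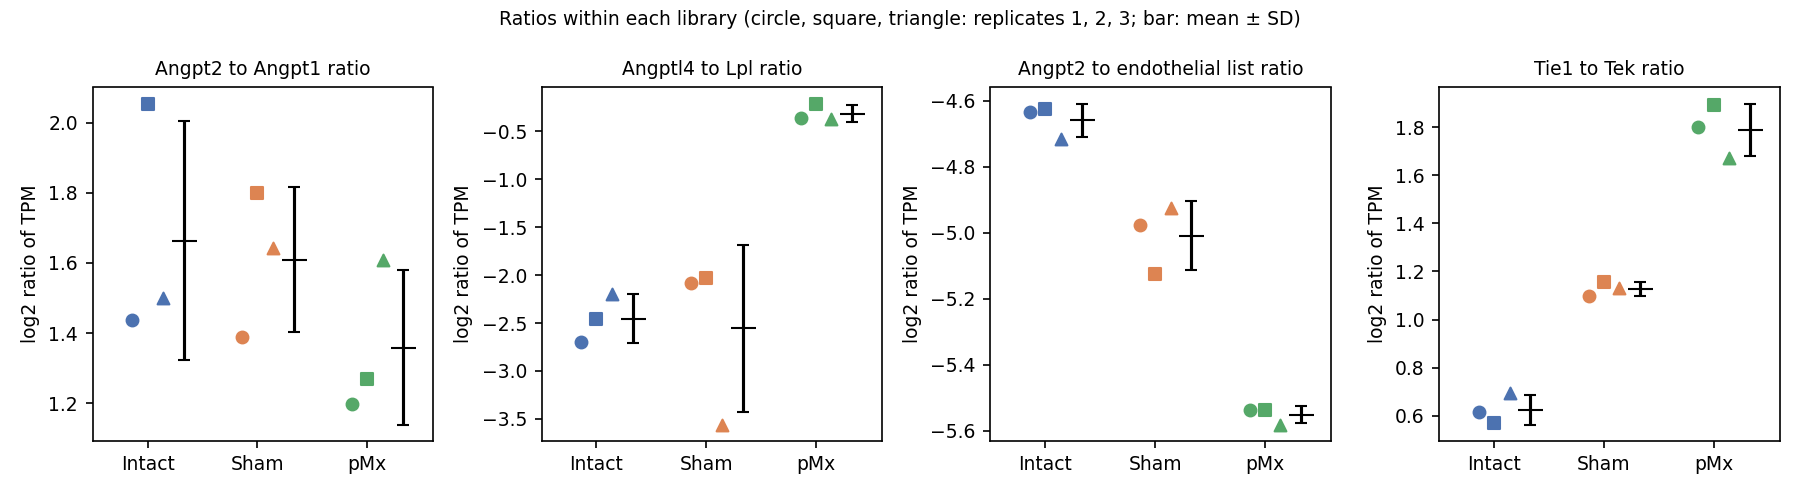
Log2 ratios of TPM within each library for Angpt2 to Angpt1, Angptl4 to Lpl, Angpt2 to the summed endothelial markers and Tie1 to Tek, with 1 symbol per replicate and the group mean ± SD as a bar (axes do not start at 0). The groups overlap for Angpt2 to Angpt1, pMx stands apart for Angptl4 to Lpl, and the 3 groups are separate for the other 2 ratios.

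Of the Tie receptor genes, Tek fell in pMx tissue and Tie1 did not pass in any comparison. Tek, which codes for the angiopoietin receptor Tie2, was at 80.8, 94.0 and 65.7 TPM in intact, 57.0, 57.6 and 56.0 TPM in sham and 34.0, 34.7 and 47.1 TPM in pMx libraries. It fell in pMx versus sham (log2 fold change -0.56, SE 0.15, limma adjusted p = 0.0187) and in pMx versus intact (-1.04, adjusted p = 0.000531), and sham versus intact did not pass (-0.47, adjusted p = 0.075) unless the third intact library was left out (-0.61, adjusted p = 0.0225). Tie1, the orphan co-receptor that modulates Tie2, was at 123 ± 16.7, 124 ± 3.49 and 132 ± 16.1 TPM (SD, n = 3) in intact, sham and pMx, and passed in no comparison (pMx versus sham 0.08, SE 0.11, adjusted p = 0.605).

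The ratio of Tie1 to Tek was examined because of these values, after they had been seen. It was 1.53, 1.48 and 1.62 in intact, 2.14, 2.23 and 2.19 in sham and 3.48, 3.71 and 3.19 in pMx libraries, with no overlap between any groups. The difference in log2 ratio was 0.66 for pMx versus sham, 0.50 for sham versus intact and 1.16 for pMx versus intact, each with an exact permutation p of 0.1 (adjusted p = 0.15, n = 3 against 3). Without the third intact library the last 2 were 0.54 and 1.20.

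Of 16 genes of the Tie receptor axis, 5 rose and 7 fell by adjusted p in pMx versus sham, against 17.7% and 18.9% of all genes. Their median log2 fold change was -0.08. Those that fell beside Tek included Ptprb, the phosphatase VE-PTP that removes phosphate from Tie2 (-0.65, SE 0.12, limma adjusted p = 0.00374), and Svep1, a matrix protein that binds Tie1 (-0.86, SE 0.21, adjusted p = 0.012). Foxo1, a transcription factor held inactive by Tie2 signaling and able to drive Angpt2, fell by 0.53 on the log2 scale (adjusted p = 0.00187), and the endothelial factor Klf2 fell by 0.79 (adjusted p = 0.00526). The risers included the integrin genes Itga5 (1.15, SE 0.12, adjusted p = 0.0002), Itgb1 (0.63) and Itgb3 (0.63), whose products bind several angiopoietin family proteins, and Itga5 was the DEG of the list in this comparison. In sham versus intact, 1 of the 16 rose and 3 fell, Ptprb and Foxo1 among the latter, against 6.73% and 5.97% of all genes. Without the third intact library none rose and 4 fell.

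**Figure D3:**
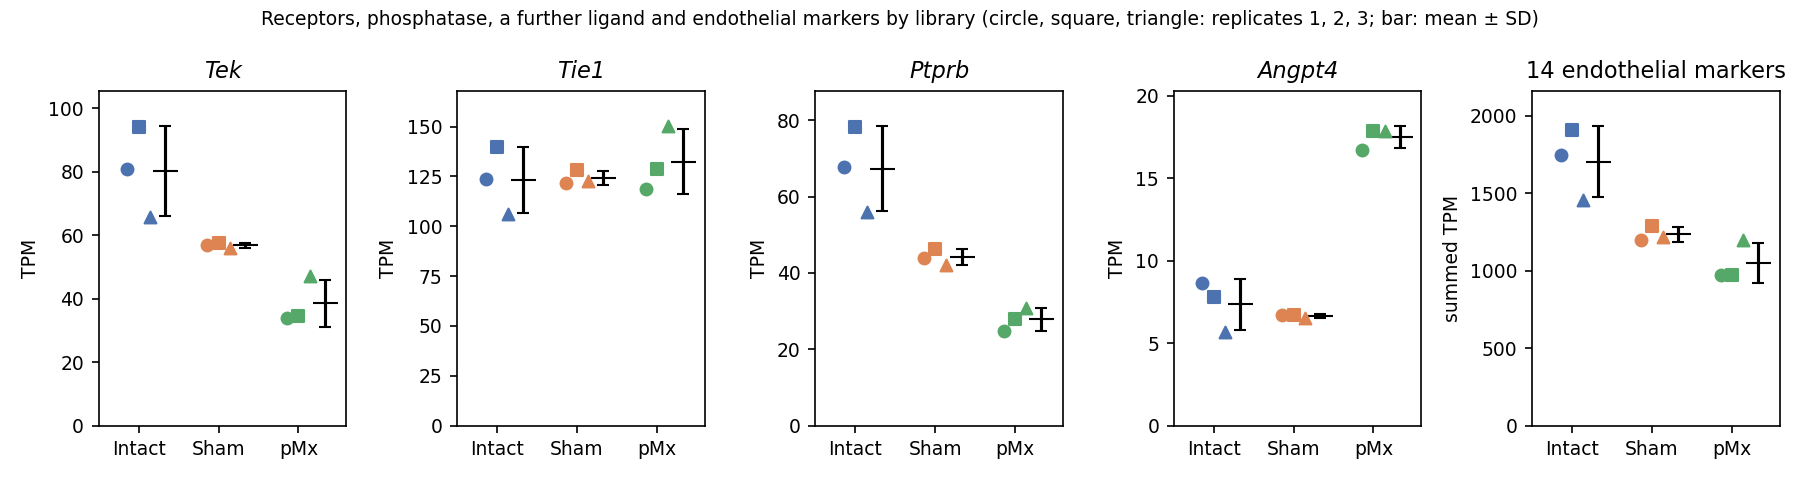
TPM of Tek, Tie1, Ptprb and Angpt4 and the summed TPM of 14 endothelial markers in each library, with 1 symbol per replicate and the group mean ± SD as a bar, on linear axes that start at 0. Tek and Ptprb step down from intact to pMx, Tie1 stays near 123 to 132 TPM on average, and Angpt4 is highest in the pMx libraries.

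A further Tie2 ligand gene, Angpt4, went the other way from Angpt1 and Angpt2 in the regenerating tissue. It was at 8.63, 7.78 and 5.65 TPM in intact, 6.73, 6.71 and 6.51 TPM in sham and 16.7, 17.9 and 17.9 TPM in pMx libraries, so that every pMx library lay above all others. Its log2 fold change was 1.27 (SE 0.13, limma adjusted p = 0.000185) in pMx versus sham and -0.11 (adjusted p = 0.637) in sham versus intact. Angpt4 is also among the secreted factors the study labeled as upregulated in these libraries, so this is not independent evidence either.

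Of the angiopoietin-like genes, Angptl2 showed the largest increase. It was at 109, 120 and 89.6 TPM in intact, 202, 199 and 151 TPM in sham and 452, 483 and 481 TPM in pMx libraries. The groups were separate at both steps, and the third library was the lowest of the intact and of the sham group. The log2 fold change was 1.37 (SE 0.13, 95% confidence interval 1.06 to 1.68, limma adjusted p = 0.000149) in pMx versus sham, 0.78 (SE 0.13, adjusted p = 0.0112) in sham versus intact and 2.15 (SE 0.13, adjusted p = 6.62e-06) in pMx versus intact. Leaving out 1 library at a time gave 1.23 to 1.44 for pMx versus sham. Without the third intact library the rise from intact to sham was 0.67 (limma adjusted p = 0.0122, in a range of 0.00345 to 0.05 over all alternatives), and that from intact to pMx was 2.03.

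The rise changed the makeup of the 6-gene group. Angptl2 made up 33.7% ± 3.32 of their summed TPM in intact, 44.7% ± 4.15 in sham and 79.1% ± 0.372 in pMx libraries (SD, n = 3), while the sum itself was 317 ± 46.2, 410 ± 29.9 and 596 ± 22.3 TPM. Angpt2 went from 21.4% ± 2.16 in intact to 3.74% ± 0.327 in pMx. Angptl2 was the highest of the 6 in all groups, followed by Angptl1, but in intact libraries its values overlapped those of Angptl1. Next came Angpt2, Angptl4, Angpt1 and Angptl7 in intact and sham, whereas Angptl4 stood above Angpt2 in pMx. In intact only Angpt2 and Angptl4 were neighbours without overlap, in sham the pairs Angpt2 and Angptl4 and Angpt1 and Angptl7 overlapped, and in pMx no neighbours did.

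**Figure D4:**
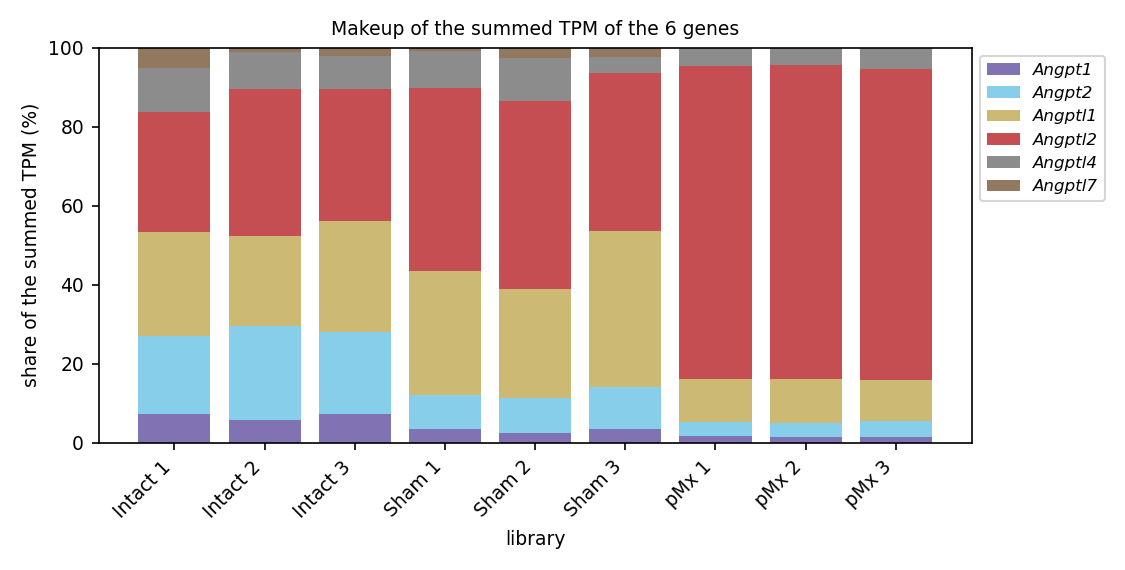
Stacked bars of the percentage of the summed TPM of the 6 genes taken by each gene in each of the 9 libraries. Angptl2 takes 30.4% to 37.1% in intact, 40.0% to 47.8% in sham and 78.8% to 79.5% in pMx libraries.

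Genes for known or possible ANGPTL2 receptors and for products known to respond to it were given a list of 10, of which 9 were in the table and tested. In pMx versus sham 5 of the 9 rose and none fell in limma, against 17.7% and 18.9% of all genes. None fell at an unadjusted p below 0.05, and the median log2 fold change was 0.60 against -0.01 over all genes. Besides Itga5 and Itgb1, the genes of the fibronectin receptor, the risers were Lilrb4 (0.52, limma adjusted p = 0.0171) and 2 genes of collagen- and matrix-degrading enzymes. Lilrb4 codes for an inhibitory leukocyte receptor, and whether it binds ANGPTL2 was not tested. The enzyme genes were Mmp3 (1.68, adjusted p = 0.00179) and Mmp13 (2.60, adjusted p = 0.00231). The inflammatory cytokine genes Il6 (0.38, adjusted p = 0.166), Il1b (-0.26, adjusted p = 0.31) and Tnf (-0.18, adjusted p = 0.454) did not pass. Lilrb4 and Mmp13 had also risen in sham versus intact, by 1.26 and 3.82.

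Angptl1 was the 1 gene of the 6 that moved in opposite directions at the 2 steps. Its level was 94.7, 74.3 and 74.6 TPM in intact, 137, 114 and 149 TPM in sham and 62.1, 67.6 and 64.0 TPM in pMx libraries. Every sham library exceeded every other library, and the pMx libraries were the lowest. It rose by 0.71 on the log2 scale (SE 0.12, limma adjusted p = 0.0107) in sham versus intact and fell by 1.03 (SE 0.12, adjusted p = 0.000325) in pMx versus sham.

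The fall of Angptl1 lay close to the fold threshold for a DEG. Fits that left out 1 library gave -1.14 to -0.95, and without sham replicate 3 it was no longer a DEG, so that 1 and not 2 of the 6 genes was a lower DEG. In pMx versus intact the value was -0.32 (limma adjusted p = 0.0548), which became -0.37 (adjusted p = 0.0422) without the third intact library, where sham versus intact was 0.66, and the adjusted p ranged from 0.0348 to 0.16 over all alternatives.

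**Figure D5:**
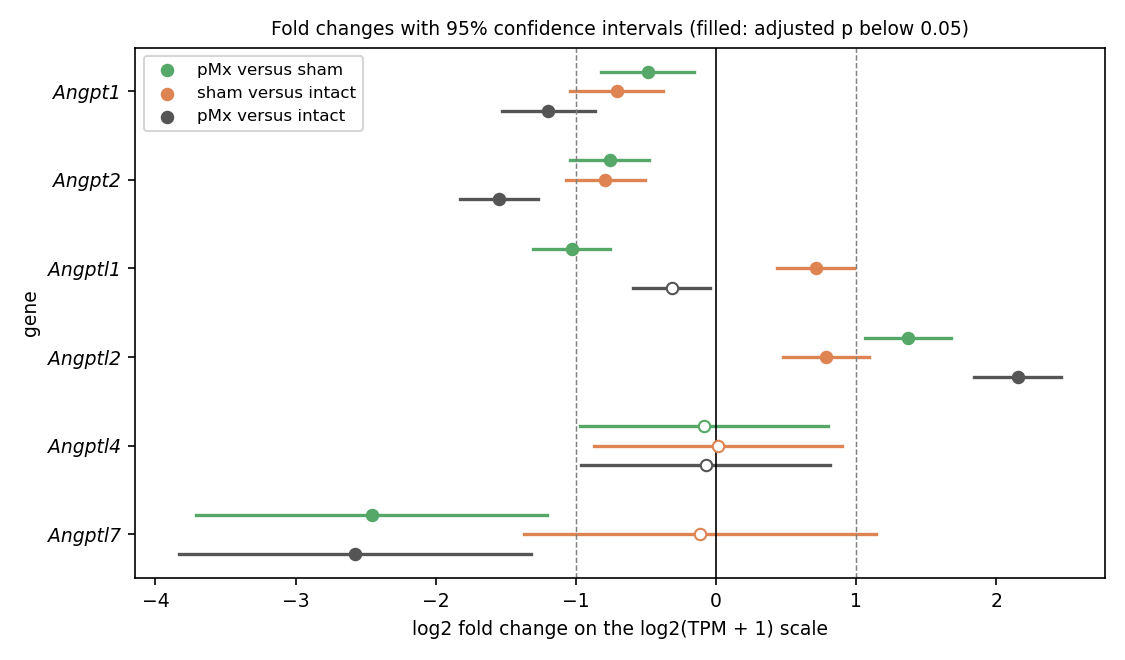
Log2 fold changes of the 6 genes on the log2(TPM + 1) scale with 95% confidence intervals for pMx versus sham, sham versus intact and pMx versus intact (filled points have an adjusted p below 0.05, dashed lines mark a log2 fold change of 1 either way). Angptl2 lies to the right of 0 in all 3 comparisons, Angpt1 and Angpt2 to the left, and the intervals of Angptl4 cross 0.

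Angptl7 was nearly lost from the regenerating tissue. It was at 18.7, 3.7 and 5.81 TPM in intact, 3.13, 10.8 and 9.18 TPM in sham and 0.61, 0.51 and 0.23 TPM in pMx libraries. Intact and sham overlapped and were widely spread, and all pMx libraries lay below both. The log2 fold change was -2.46 (SE 0.55, limma adjusted p = 0.00838) in pMx versus sham and -2.57 (SE 0.55, adjusted p = 0.00443) in pMx versus intact, and each of the fits without 1 library kept both calls, at -2.93 to -2.17 and -3.01 to -1.97. The size depended on the pseudocount: with 0.1 and 0.01 in place of 1 the pMx versus sham value was -3.72 and -3.99 and the pMx versus intact value -3.84 and -4.12. Sham versus intact was -0.12 (95% confidence interval -1.37 to 1.14, adjusted p = 0.916). Leaving out the third intact library gave values against intact of -0.28 for sham and -2.74 for pMx.

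Of the 12 fibrocartilage and tendon markers, 6 rose and 1 fell in pMx versus sham, against 17.7% and 18.9% of all genes. The summed level of the list was 1030 to 1170 TPM in sham and 2550 to 2730 TPM in pMx libraries. Of 12 nerve markers 10 fell and none rose in that comparison, with a sum of 341 to 424 TPM in sham and 81.9 to 99.6 TPM in pMx libraries. All 12 adipocyte markers fell there too, and of 12 pericyte and smooth muscle markers 5 fell and 1 rose. The part of any of these cell types in the fall of Angptl7 was not tested.

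Angptl4 did not pass in any comparison. Its level was 39.6, 30.5 and 21.9 TPM in intact, 40.9, 44.9 and 14.6 TPM in sham and 26.3, 26.7 and 32.2 TPM in pMx libraries, with the third sham library the lowest of the 9. The pMx versus sham log2 fold change was -0.09 with a 95% confidence interval of -0.97 to 0.80 (limma adjusted p = 0.894), an interval wide enough to hold changes of either sign. Without sham replicate 3 the value was -0.58 (adjusted p = 0.0921, in a range of 0.0921 to 0.969 over all alternatives). The values against intact were -0.20 for sham and -0.29 for pMx without the third intact library.

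The RNA of the enzyme that ANGPTL4 inhibits did change, while the enzyme itself was not measured here. Lpl, the lipoprotein lipase gene, was at 257, 168 and 100 TPM in intact, 173, 183 and 172 TPM in sham and 33.8, 30.9 and 41.7 TPM in pMx libraries, a log2 fold change of -2.29 (SE 0.29, limma adjusted p = 0.00045) in pMx versus sham. The ratio of Angptl4 to Lpl was 0.154, 0.182 and 0.218 in intact, 0.236, 0.246 and 0.0848 in sham and 0.779, 0.865 and 0.773 in pMx libraries. The pMx libraries lay above all others, and their geometric mean ratio was 4.73 times that of sham and 4.41 times that of intact (exact permutation p = 0.1 for each, adjusted p = 0.15, n = 3 against 3). Leaving out 1 library gave differences in log2 ratio of 1.74 to 2.51 in pMx versus sham, the lowest without sham replicate 3, and the pMx versus intact difference was 2.14, or 2.27 without the third intact library. The sham versus intact difference was -0.10 (exact permutation p = 1.0) and 0.03 without that library.

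Of 12 genes of lipoprotein lipase handling tested, Lpl among them, 7 fell in pMx versus sham and none rose in limma. Of all genes 18.9% fell and 17.7% rose. DEGs made up 6 of the 7, where 4.85% of all genes were lower DEGs, and the median log2 fold change of the list was -0.89. At an unadjusted p below 0.05, and also by adjusted p without the third intact library, 2 rose. Beside Lpl, those that fell included Gpihbp1, which anchors the enzyme on capillary endothelium (-1.78, SE 0.09, limma adjusted p = 1.16e-05). They also included the fatty acid receptor gene Cd36 (-3.01, adjusted p = 2.9e-05) and Pcsk6, a convertase that cleaves the enzyme (-2.23, adjusted p = 5.28e-05). Gpihbp1 and Pcsk6 had already fallen in sham versus intact, by 1.24 and 1.01 on the log2 scale. Lmf1, the factor for folding the lipase, did not pass (0.20, adjusted p = 0.14). The adipocyte markers given above fell in the same libraries, and their part in these values was not tested.

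Regulators and targets of the pathways known to induce Angptl4 went in different directions. In pMx versus sham, 17.7% of all genes rose and 18.9% fell by adjusted p. Of 14 PPAR factors and target genes, 6 fell and 1 rose in pMx versus sham. Those that fell included Pparg, the adipocyte nuclear receptor (-2.71, limma adjusted p = 0.000161), its target Fabp4 (-3.32, adjusted p = 3.15e-05) and the target Pdk4 (-2.45, adjusted p = 2.64e-05). The 1 that rose was Ppard, the gene of another PPAR receptor (0.38, adjusted p = 0.00825). The lipid droplet gene Plin2 did not pass (-0.02, adjusted p = 0.957). Of 15 hypoxia target genes, 8 rose and 1 fell, including Ca9, a carbonic anhydrase (3.32, adjusted p = 8.5e-05), P4ha1, a collagen prolyl hydroxylase (1.19, adjusted p = 4.04e-05), and Vegfa (0.42, adjusted p = 0.0381), with a fall of Adm (-0.72, adjusted p = 0.00391). In sham versus intact none of the hypoxia genes and 1 PPAR gene, Pdk4, passed in limma, where 6.73% of all genes rose and 5.97% fell. The third intact library held 7261 TPM of the hypoxia list against 2256 to 2282 TPM in the other intact libraries. Genes of the list went both ways there. Aldoa (5029 against 763 and 780 TPM) and Ldha (937 against 364 and 375 TPM) were higher than in the other intact libraries. Ca9 (0.24 against 0.73 and 0.62 TPM) and P4ha1 (67.9 against 75.8 and 79.7 TPM) were lower. This was also the library with the high skeletal muscle markers, whose part in these values was not tested. Without this library 2 hypoxia genes fell and none rose in sham versus intact, while at an unadjusted p below 0.05 with it 4 fell.

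Of the remaining family members, Angptl8, known from adipose tissue and liver, was at 9.95, 4.99 and 2.41 TPM in intact, 14.3, 9.97 and 11.7 TPM in sham and 1.05, 3.87 and 1.39 TPM in pMx libraries. It was lower in pMx than in sham without overlap (log2 fold change -2.16, SE 0.44, limma adjusted p = 0.0056). Angptl6 was at or below 0.28 TPM in every library.

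The genes whose log2(TPM + 1) was most like that of each gene over the 9 libraries, among 13204 genes with a mean of at least 1 TPM, are given as a description over points that share the 3 groups. For Angptl2 they were the fibrillar collagen gene Col5a1 (Pearson r = 0.999), Ptk7 (0.998) and Ssc5d (0.998), and for Angpt2 they were RGD1310587 (0.997), Cx3cl1 (0.996) and Rgs4 (0.994). Angpt1 was nearest to Prlr (0.987), Tmem170b and Cpped1, and Angptl1 to Rps18 (0.966), Rpl23 and Alox5ap. For Angptl4 the nearest were Ccdc127 (0.956), Vhl and Osgep, and for Angptl7 rnf141 (0.961), Pnpla3 and LOC108348215. Angpt1 and Angpt2 had a Pearson r of 0.929 with each other over the same libraries, and Angpt2 and Angptl2 of -0.934.

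In RefSeq, 5 of the 6 genes overlap another gene, and whether reads were counted by strand is not given in the sources used here. Angpt2 overlaps Mcph1, which was at 0.8 to 3.25 TPM and highest in pMx libraries, opposite to Angpt2. Angptl2 overlaps Ralgps1, at most 1.25 TPM, and Angptl1 overlaps Ralgps2, which was at 7.66 to 11.0 TPM in intact and 4.15 to 4.79 TPM in pMx libraries. Angptl7 overlaps Mtor, at 10.6 to 13.0 TPM in all libraries, a level above that of Angptl7 in most of them. Angpt1 overlaps LOC102547184, and Angptl4 overlaps no gene.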

How the data were processed

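RNA-seq libraries of 3 groups with 3 libraries each were assigned to groups from their sample titles. The authors deposited TPM values, computed by BGI in Dr. Tom from oligo-dT captured RNA. Per the submitters' processing notes, HISAT2 2.0.4 and the build mRatBN7.2 were used. The counting tool and annotation are not given in the sources used here. TPM sums to a fixed total per library, so a gene that rises strongly lowers the others, and depth is unknown. All 9 columns were used. RefSeq GRCr8 held 17419 of the identifiers (99.0%) and served for names, overlaps and promoters only.

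Genes above 0 TPM in at least 3 libraries were put on the log2(TPM + 1) scale and fitted with 1 mean per group in limma 3.58.1 (R 4.3.3, eBayes with trend, Benjamini-Hochberg). The calculation was tested on simulated data. Ratios were compared by exact two-sided permutation tests (SciPy 1.17.1), and figures drawn with Matplotlib 3.10.9. The genes, the 14 gene lists and the tests were chosen with earlier results of these data known, and the named genes are the 6 genes, genes of these lists and the 3 genes most like each. The Tie1 to Tek ratio was chosen after its values were seen. Alternatives were pseudocounts of 0.1 and 0.01, a mean of at least 1 TPM or no filter, quantile normalization or rescaling by median ratios, the 6 libraries of a comparison, eBayes without trend or with robust settings, a replicate block, adjusted p alone or below 0.01, and leaving out each library. After seeing the data, a fit with the skeletal muscle score as covariate was added. The labels give no batch.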

Additional observations from a re-analysis of the deposited data

How the results depend on the processing

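Over 360 values of the 6 genes under alternatives, 341 kept their direction and their side of the threshold, 7 lost the call, 4 gained it and 8 changed sign. The 8 changes of sign were in values that never passed the test: for Angptl4, pMx versus sham was 0.13 and 0.20 without sham replicates 1 and 2, sham versus intact was -0.20, -0.20 and -0.27 without intact replicate 3, sham replicate 1 and sham replicate 2, and pMx versus intact was 0.13 without intact replicate 1, and for Angptl7, sham versus intact was 0.48 without intact replicate 1 and 0.35 without sham replicate 1. Leaving out 1 library gave ranges of -0.58 to 0.20, -0.27 to 0.51 and -0.29 to 0.13 for Angptl4 in these 3 comparisons and of -0.55 to 0.48 for Angptl7 in sham versus intact. The calls lost were those of Angpt1 described above, and the calls gained were those of Angptl1 in pMx versus intact, also with a mean of at least 1 TPM (adjusted p = 0.0481 in limma), without sham replicate 2 (0.0348) and with the skeletal muscle score (0.0357).

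Leaving out 1 library, the sham versus intact difference in the log2 ratio ranged from -0.17 to 0.14 for Angpt2 to Angpt1 (0.06 without sham replicate 1, 0.14 without intact replicate 2) and from -0.37 to 0.40 for Angptl4 to Lpl (0.40 without sham replicate 3, 0.03 without intact replicate 3). Lower DEGs among the 6 genes in pMx versus sham ranged from 1 to 2. By adjusted p alone, 4 genes were lower in pMx versus sham, and 2 were higher and 2 lower in sham versus intact. In all 3 comparisons other counts kept within 1.5 times.

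Neither the labels nor the methods say whether replicate numbers pair the samples. Deviations of same-numbered libraries correlated at 0.035, 0.368 and 0.485 between pMx and sham, where those of other pairs ran from -0.47 to 0.31. They correlated at 0.0016, -0.399 and -0.494 between sham and intact and at -0.378, -0.439 and -0.664 between pMx and intact. These values do not settle whether same-numbered libraries are paired. With the replicate block, 1 gene was a higher and 2 were lower DEGs in pMx versus sham, as without it, and no call of the 6 genes changed in any comparison.

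Over all genes, a pseudocount of 0.1 gave 837 higher and 1392 lower DEGs in pMx versus sham in place of 554 and 801, and 452 and 160 in place of 235 and 88 in sham versus intact. With the 6 libraries of sham versus intact alone, 406 genes were higher and 281 lower by adjusted p in place of 1112 and 985. Depth is unknown, so the low values of Angptl7 in pMx carry an unknown counting error.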
